A study of Homo sapiens with 2 samples.

Results

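Contacts of the splicing protein SNRPA1, a component of the U2 small nuclear ribonucleoprotein, were listed on MALAT1, NEAT1 and PVT1, long noncoding RNAs of the nucleus. Contacts were mapped by irCLIP, which crosslinks RNA to protein in living cells, recovers the protein with an antibody and sequences the attached RNA fragments. The cells were MDA-231-LM2, human breast cancer cells derived from MDA-MB-231 by selection for lung metastasis, and the antibody targets endogenous SNRPA1. There was 1 group of 2 biological replicates, with no treatment or altered genotype named in the labels. Of the peak lists, the one made by the caller CLIPper gives reads per interval and the other, here the height list, gives each peak's height in tags. Neither keeps the replicates apart, so no spread between replicates can be given, and the depth of the libraries is unknown. No control immunoprecipitate, input or RNA-seq library was analysed here, so how much of each RNA the cells held is also not known here, and the identity of the cells could not be checked by markers.

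Members were found by gene identifier. In the CLIPper list ENSG00000251562 is MALAT1, ENSG00000245532 is NEAT1 and ENSG00000249859 is PVT1, and in the height list the Entrez identifiers are 378938, 283131 and 5820. All 3 RNAs had 2 or more CLIPper intervals, as did 36.8% of the identifiers in that list. They held 14 of the 7651 distinct CLIPper intervals: 10 in MALAT1, 2 in NEAT1 and 2 in PVT1. They held 2 of the 1373 distinct peaks of the height list, 1 in MALAT1 and 1 in PVT1. Positions below are in hg19, the build named in the submitters' processing notes, and all 16 listed sites lie on the plus strand. Without a genome of that build, the distance of a site from the annotated transcript start, the exon or intron it lies in and its sequence were not analysed here. Positions along each RNA are therefore given from the start of its first listed interval.

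The U2 particle, with SNRPA1 and its partner SNRPB2 on the U2 snRNA, pairs with the branch site of introns during splicing. MALAT1 is an abundant, mostly unspliced transcript that collects in nuclear speckles, the compartments where splicing factors are stored, and was first described as a marker of metastasis in lung adenocarcinoma. NEAT1 is made as a short and a long isoform, and the long one is the scaffold of paraspeckles. PVT1 is a spliced transcript of a very long gene next to MYC on chromosome 8, with many isoforms.

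MALAT1 carried many listed intervals, all of few reads. Among the 4848 Ensembl identifiers of the CLIPper list, 15 (0.309%) had 10 or more intervals, and MALAT1 was one of them. Its 10 intervals lay between positions 65267851 and 65273451 of chromosome 11. From the first to the last they spanned 5601 nt, equal to 63.8% of the 8779 nt that the RefSeq gene table of GRCh38.p14 gives for the gene. The intervals themselves covered 270 nt, or 3.08% of that length. Of the 10, 5 had 3 reads, 4 had 4 reads and 1 had 6 reads. The list's lowest entry has 3 reads and its median interval 5, so 9 of the 10 were below the median.

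Listed in order along MALAT1, the first pair of intervals abutted at 65267851 to 65267858 and 65267859 to 65267885, with 4 reads each. The third interval (65268481 to 65268508) began 630 nt after the start of the first and had 3 reads. The fourth (65269692 to 65269728) began at 1841 nt and had 6 reads (95% Poisson interval 2.20 to 13.1). This was the interval of most reads in MALAT1, and its counting interval contains the numbers of all the others. The fifth (65269940 to 65269971, from 2089 nt) had 3 reads and was the only one of the 10 with a peak of the height list on it. The sixth (65270331 to 65270363, from 2480 nt) also had 3 reads. Then came 2 intervals only 13 nt apart, at 65271327 to 65271355 (from 3476 nt) and 65271369 to 65271409 (from 3518 nt), with 3 reads each. The last pair abutted at 65273417 to 65273422 and 65273423 to 65273451, from 5566 nt, again with 4 reads each. The longest gap without a site, 2007 nt, came just before the last pair. Joining intervals within 50 nt of each other left 7 sites.

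**Figure D1:**
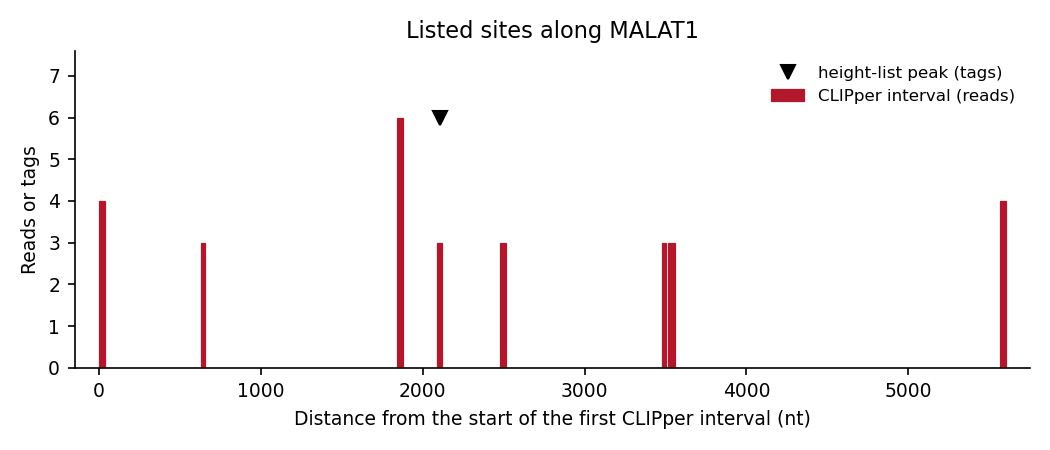
Sites listed on MALAT1, by distance in nt from the start of the first CLIPper interval (x axis) and by reads or tags (y axis). Each bar is a CLIPper interval drawn to its width, with 3 to 6 reads, and the triangle is the 1 height-list peak, at 6 tags over an interval of 3 reads.

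Compared with the other 14 genes of 10 or more CLIPper intervals, MALAT1 was low in reads and compact. The most reads in one interval ranged from 5 to 2486 over those 14 genes, with a median of 28, and 2 of them were at or below the 6 reads of MALAT1. Their intervals spanned 167 to 1395540 nt, with a median span of 438816 nt, and in 3 of them the span was shorter than in MALAT1. The span in MALAT1 could not exceed the 8779 nt of its gene, so against that median it was bound to be short. These values describe the list, and no test across replicates was possible.

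NEAT1 had a single listed region. It was listed as a pair of abutting intervals at chromosome 11, 65197097 to 65197103 and 65197104 to 65197132, each with 9 reads (95% Poisson interval 4.12 to 17.1). Together they covered 36 nt, or 0.158% of the 22743 nt of the gene. Of all CLIPper intervals, 20.5% had 9 reads or more. So NEAT1 had fewer intervals than MALAT1 but more reads in each than any MALAT1 interval, although the counting intervals for 9 and 6 reads overlap. The height list gives NEAT1 no peak.

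PVT1 had a pair of sites far apart. The first, at chromosome 8, 128948280 to 128948316, had 11 reads (95% Poisson interval 5.49 to 19.7), the most of the 14 intervals. Of all CLIPper intervals, 15.2% had at least as many. The second, at 129056467 to 129056499, had 5 reads (1.62 to 11.7) and carries the PVT1 peak of the height list. A gap of 108150 nt separates them, and the 108220 nt from end to end equal 35.3% of the 306733 nt of the gene. Most of the PVT1 gene is intron, and whether either site is exonic was not analysed here.

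Per length of gene, listed sites were densest in MALAT1. Density was 1.14 CLIPper intervals per kb in MALAT1 (95% Poisson interval 0.546 to 2.09), 0.0879 per kb in NEAT1 (0.0106 to 0.318) and 0.00652 per kb in PVT1 (0.000790 to 0.0236). MALAT1 was 13.0 times as dense as NEAT1 (exact 95% interval of the ratio 2.76 to 122) and 175 times as dense as PVT1 (37.2 to 1640). The ratio of NEAT1 to PVT1 was 13.5, and its interval, 0.978 to 186, includes 1. These intervals cover counting error only, and sites of one RNA are not replicates. The counting intervals of both MALAT1 ratios lay above 1 only with its intervals of 3 and 4 reads included. Counting only intervals of at least 5 reads, MALAT1 kept 1 interval and NEAT1 and PVT1 kept 2 each. MALAT1 was then 1.30 times as dense as NEAT1 (0.0220 to 24.9) and 17.5 times as dense as PVT1 (0.296 to 336), and both intervals include 1. Counts of 1 against 2 are too small to say whether the difference from PVT1 depends on the low-read intervals. The 2 NEAT1 intervals abut and are counted apart here. Joining intervals within 50 nt, at any number of reads, gave ratios of 18.1 over NEAT1 (2.33 to 817) and 122 over PVT1 (23.3 to 1206). Joining and the limit of 5 reads were not combined. With p under 1e-5 MALAT1 kept 0 intervals, and both ratios turned to 0. The length used is that of the whole gene, which counts the introns of PVT1.

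**Figure D2:**
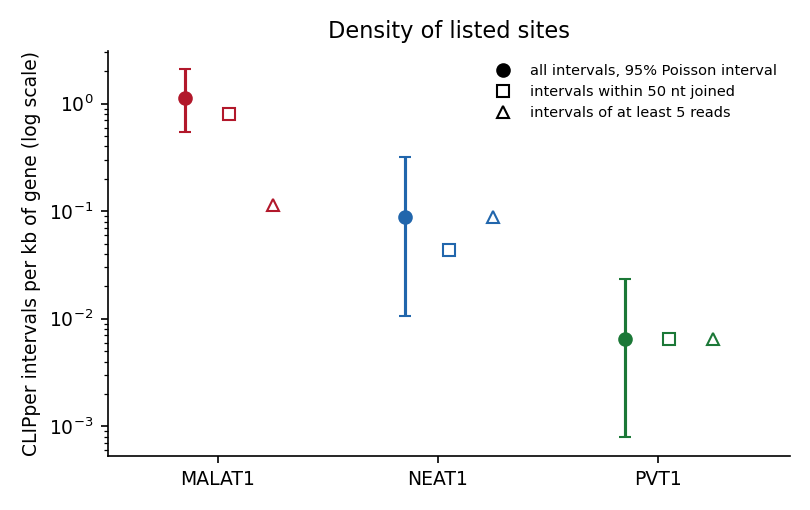
CLIPper intervals per kb of gene for MALAT1, NEAT1 and PVT1 (log scale). Filled circles with bars give all intervals and their 95% Poisson intervals, and squares the sites after joining intervals within 50 nt. Triangles give intervals of at least 5 reads, where MALAT1 falls from 1.14 to 0.114 per kb. There it lies close to NEAT1 at 0.0879, whose abutting intervals are counted apart.

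A length could be given to other CLIPper genes where a shared site paired 1 Ensembl with 1 Entrez identifier, which leaves out NEAT1 and 3768 identifiers in all, among them 8 of the 15 genes with 10 or more intervals. Among the 1080 genes paired this way the median was 0.0126 intervals per kb. MALAT1 ranked 1 in density and PVT1 ranked 808. With only intervals of at least 5 reads, a setting added after the data were seen, MALAT1 ranked 24 and PVT1 620. Of the 32 long noncoding RNA genes among them PVT1 ranked 22. All these genes hold a peak of the height list, so the ranks do not extend to genes without one. Over the span of its intervals, a shorter length than the gene, MALAT1 had 1.79 per kb. Of the 14 other genes with 10 or more intervals, the 3 of shorter span had 6.85, 59.9 and 107 per kb. The others had less than MALAT1. RNA abundance could move with density and was not tested.

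The deposited p-values largely follow the read numbers given above. CLIPper p-values fall as reads rise, and all intervals with p under 1e-5 amount to 23.2% of the list. At 6 reads, the most in MALAT1, the median p over the list was 8.54e-05, which does not reach that level. A split at p under 1e-5 is therefore largely a split by reads. Of the members' intervals, both in NEAT1 and the first in PVT1 passed that level and none of the 10 in MALAT1 did. For MALAT1 p lay between 1.76e-04 at the 6-read interval and 0.0292. In NEAT1 the 2 values were 1.15e-07 and 1.24e-07, and in PVT1 they were 8.61e-10 and 6.03e-04.

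At equal reads, MALAT1 intervals also had higher p than most of the list. The 3-read entries of the whole list had a median p of 0.0191, while the 5 in MALAT1 lay between 0.0257 and 0.0292. That is within the top 1.21% of the 2406 entries of 3 reads. Among 4-read entries, where the median was 0.00370, the 4 in MALAT1 had 0.00395 to 0.00536, within the top 5.50%. The 6-read interval, at 1.76e-04 against a median of 8.54e-05, was in the top 3.75%. NEAT1 and PVT1 sat close to the medians for their reads, which were 1.17e-07 at 9 reads, 8.90e-10 at 11 and 6.05e-04 at 5. Within MALAT1 the 3-read intervals had a higher p the wider they were, from 0.0257 at 28 nt through 0.0260 at 29 nt, 0.0268 at 32 nt and 0.0270 at 33 nt to 0.0292 at 41 nt. The 4-read intervals did not keep this order throughout. They had 0.00395 at 6 nt, 0.00416 at 8 nt, 0.00536 at 27 nt and 0.00503 at 29 nt. The sources used here do not say how the caller set a background for each gene.

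**Figure D3:**
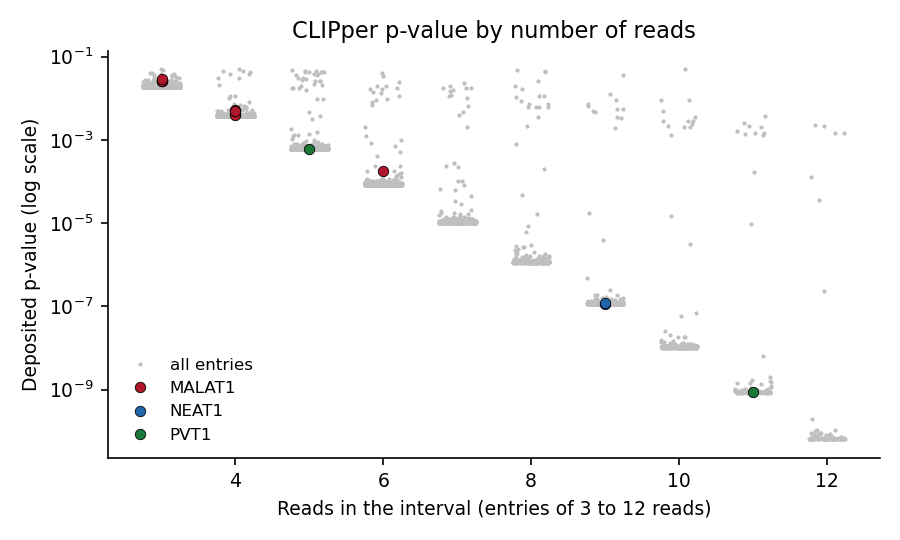
Deposited CLIPper p-value (log scale) against the reads in the interval, for all entries of 3 to 12 reads (grey, spread sideways for visibility) and for the members. MALAT1 points at 3, 4 and 6 reads lie in the upper part of the grey entries, within the top 5.50% at each read number, while NEAT1 at 9 reads and PVT1 at 5 and 11 reads lie near the median.

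In the height list, MALAT1 and PVT1 were among 49 long noncoding RNA genes with a peak, of 18330 in the gene table (0.267%). The sources used here do not say which of those genes were annotated when the list was made. The MALAT1 peak, at 65269941 to 65269971, was 6 tags high (95% Poisson interval 2.20 to 13.1), and 28.0% of distinct peaks were at least as high. Its P was 0.00604. This was the highest P of all 128 entries of 6 tags, whose median was 1e-09. The PVT1 peak, at 129056469 to 129056502, was 5 tags high (1.62 to 11.7), and its P was 1e-100, the lowest value in the list, shared by 275 entries. The median P of the 171 entries of 5 tags was 2.67e-08. At nearly equal height the 2 peaks therefore stood at opposite ends of P among entries of their own height. The CLIPper intervals on these sites were less far apart, with CLIPper p of 0.0268 in MALAT1 and 6.03e-04 in PVT1. Whether 1e-100 is a floor of the deposited values was not tested, so it is no measure of the strength of a peak of 5 tags. With P under 1e-5, which 47.6% of distinct peaks have, PVT1 kept its peak and MALAT1 did not.

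Each entry of the height list also has a field named PH0, which in output of this form is a background height set for the gene, although the sources used here do not define it. It was 0.09 for MALAT1, and only 12 of 1454 entries had a value that high, MALAT1 included. It was listed as 0.00 for PVT1, as for 82.4% of entries. Of the 49 long noncoding RNA genes, 2 had a PH0 of at least 0.09, MALAT1 and LINC00910. LINC00910 was far higher, with a PH0 of 1.1 and a tallest peak of 505 tags.

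The lists overlapped at few sites, both for the members and over the whole CLIPper list. A peak of the height list lay on 2 of the 14 CLIPper intervals (14.3%, 95% Clopper-Pearson interval 1.78 to 42.8), against 20.8% of all 7651. By RNA this was 1 of 10 in MALAT1, 0 of 2 in NEAT1 and 1 of 2 in PVT1. In the whole list, at the read numbers that the members have, the share was 3.97% at 3 reads, 13.3% at 4, 21.1% at 5, 26.3% at 6, 45.9% at 9 and 39.8% at 11. The members' sites with most reads were not the shared ones: the 6-read interval of MALAT1, the 9-read pair of NEAT1 and the 11-read interval of PVT1 had no peak, while a 3-read interval of MALAT1 and the 5-read interval of PVT1 did. The series has only these libraries and the lists do not separate them, so an overlap is no measure of replication.

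At the shared MALAT1 site the height exceeded the reads. The peak of 6 tags overlapped an interval of 3 reads by 31 nt, a ratio of 2.0 tags per read. Among the 1335 peaks of the height list that lie on a CLIPper interval the median ratio was 0.60. More tags than reads were found at 10 peaks (0.749%), and a ratio of at least 2.0 at 3, of which this was one. At the shared PVT1 site tags and reads were equal at 5, as at 190 peaks (14.2%), and the overlap was again 31 nt. The sources used here do not define a read against a tag.

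Of the 14 intervals, 6 belonged to pairs that abut with no base between them: 2 pairs in MALAT1 and 1 in NEAT1. Over the whole CLIPper list 25.4% of intervals did. In all 3 pairs both intervals had the same number of reads, as in 86.1% of the 1010 pairs in the list. Whether both intervals of a pair count the same reads was not tested. In all 3 the interval at the lower coordinate was the narrower, 6 to 8 nt against 27 to 29 nt, and across the list this held for 93.4% of pairs on the plus strand and 85.6% on the minus strand. On the plus strand, where the 3 RNAs lie, the narrow interval is the 5′ one.

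The nearest other sites were closer around MALAT1 and NEAT1 than around PVT1. Between the last NEAT1 interval and the first MALAT1 interval lay 70.7 kb without an entry for another gene, the site nearest to each being that of the other on that side. On the other side of NEAT1 the nearest interval was 30.1 kb away on the same strand, with 8 reads. Beyond MALAT1 it was 34.6 kb away on the minus strand, with 5 reads. Around PVT1 the nearest intervals were 554 kb before and 1811 kb after, with 3 reads each and on the minus strand. No interval of either list lay on the opposite strand within the span of sites of any of the 3 RNAs, which is only 36 nt in NEAT1. Whatever gene they are assigned to, no further plus-strand intervals lay in these spans.

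Among the 49 long noncoding RNA genes with a peak, MALAT1 was one of the shortest and PVT1 one of the longest. Only 2 were shorter than MALAT1 and 7 were longer than PVT1, and the median length was 84.1 kb. By tallest peak the median gene had 4 tags, and 18 genes reached 6 tags or more. MALAT1 ranked 7 in peaks per kb, at 0.114, and PVT1 ranked 43, at 0.00326, where the median was 0.0119. Nearest to MALAT1 in density (difference on the log10 scale, over 49 genes) were LINC00486 with 0.117 per kb and a tallest peak of 25 tags, LINC01004 with 0.106 per kb and 5 tags, and ZFAS1, a host gene of small nucleolar RNAs, with 0.0902 per kb and 5 tags. Nearest to PVT1 were LINC01924 with 0.00313 per kb and 3 tags, LINC01091 with 0.00356 per kb and 6 tags, and LOC100287944 with 0.00359 per kb and 9 tags. As 42 of the 49 genes had 1 peak, density in this list is for most of them the inverse of gene length.

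**Figure D4:**
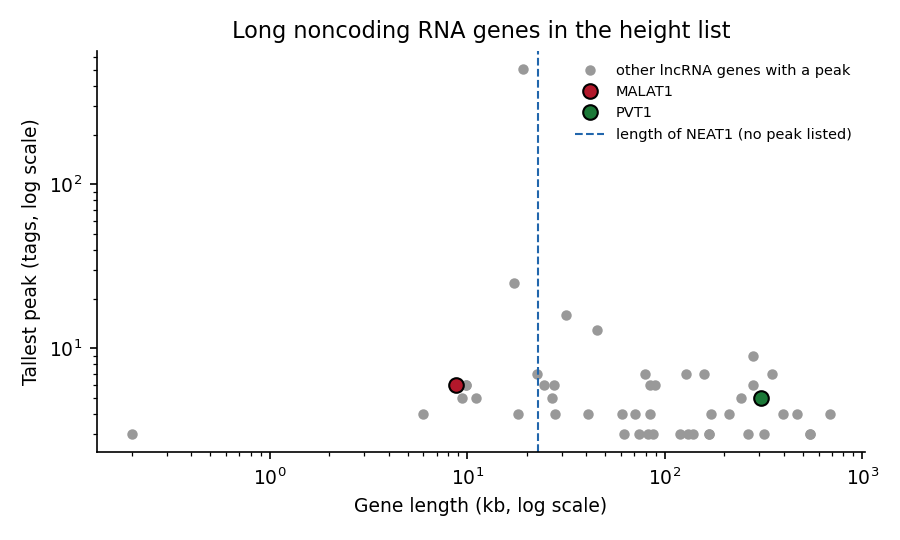
Tallest peak in tags against gene length in kb (both log scales) for the 49 long noncoding RNA genes of the height list. MALAT1 lies at the short end with 6 tags and PVT1 at the long end with 5 tags, both within the bulk of heights, and the dashed line marks the length of NEAT1, which has no listed peak.

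Some genes of 4 lists, drawn up by compartment or chromosomal position with earlier results of these data known, also held a peak. Of 24 genes in a list of other long noncoding RNAs 1 did (4.17%), FIRRE with 3 tags. Over all long noncoding RNA genes in the table the share was 0.267%. That list was drawn up as nuclear, but the compartment of its RNAs was not checked, and its share rests on 1 gene. Among genes for paraspeckle proteins, which assemble on NEAT1, 4 of 24 did (16.7%), against 6.02% of all protein-coding genes in the table. They were the hnRNP genes HNRNPK with 5 tags and HNRNPH3 and HNRNPUL1 with 4 each, and RBMX, which encodes a splicing regulator, with 4. Among genes for nuclear speckle proteins 2 of 25 did (8.0%), close to the 6.02% of all protein-coding genes. They were ACIN1, which encodes a component of splicing-dependent complexes, with 5 tags, and CDK12, a kinase gene for the RNA polymerase II tail, with 3. Of 22 chromosomal neighbours, most of them protein-coding, 2 did (9.09%), also close to that 6.02%. They were LTBP3, a latent TGF-beta binding protein gene beyond MALAT1, with 4 tags, and ASAP1, an Arf GTPase-activating protein gene beyond PVT1, with 3. No test of these shares was made, and the shares over the table count all its genes, expressed in these cells or not.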

How the data were processed

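SNRPA1 irCLIP was run in 2 biological replicates of MDA-231-LM2 cells. Per the submitters' processing notes, cutadapt 1.10, BWA 0.7 and build hg19 were used. In the CLIPper list the authors deposited a p-value per interval and, in the interval's name, a gene identifier and a number of reads. The sources used here do not say from which libraries it was called. In the height list, pooled per its file name, each interval has a deposited signal, its height in tags, with P and PH0. The sources used here do not name its caller. Repeated intervals were counted once, and p and P are the authors' own. Depth per sample is unknown. The GRCh38.p14 RefSeq table, which named 1444 of 1454 height-list entries, served for names, types and lengths only.

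Overlap meant at least 1 nt on the same strand. Intervals are exact at the 95% level (Poisson, Clopper-Pearson, and conditional for ratios) and cover counting error only. No test between groups was possible. Named genes followed a rule: the 3 members, the 3 long noncoding RNA genes nearest in peak density to each member with a peak, and members of 4 gene lists with a peak. LINC00910 was named after its value was seen. The members and lists were chosen with earlier results of these data known. Code was tested on placed intervals, some of them shifted from the CLIPper list, and on simulated counts. Computation used scipy 1.17.1, pandas 2.3.3 and numpy 2.4.6, with plots by matplotlib 3.10.9, under Python 3.11.15.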

Additional observations from a re-analysis of the deposited data

How the results depend on the processing

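Of 44 alternatives over site numbers, densities, their ratios and ranks, and shares with a height-list peak, 29 stayed within 1.5 times the reported number or, for shares, within its interval. Densities and ratios with p under 1e-5 and ranks with at least 5 reads were added after seeing the data. With p under 1e-5, CLIPper sites fell from 10 to 0 in MALAT1 (0 per kb) and from 2 to 1 in PVT1 (0.00326 per kb), and the height-list peak of MALAT1 was lost (0). The density ratios then turned to 0 for MALAT1 over NEAT1 and over PVT1, and NEAT1 over PVT1 became 27.0. Joining within 50 nt left 1 site in NEAT1 (0.0440 per kb) and a ratio of NEAT1 to PVT1 of 6.74. With at least 5 reads MALAT1 had 0.114 sites per kb, 1.30 times NEAT1, whose abutting intervals are counted apart, and 17.5 times PVT1. Its rank in density among paired genes then went from 1 to 24. Shares with a height-list peak were the same when 50% of the interval had to be covered, when a distance of 50 nt was allowed and on either strand. Fewer sites pass a stricter level by construction. Density over exon length was not run for lack of such lengths. No paired analysis was possible because only 1 group exists, and no replicate could be left out since neither list gives values by replicate. Unknown depth and the few reads per site limit every count.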
